A study of Mus musculus with 8 samples.

Results

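Microglia are the resident macrophages of the brain, and the 40 genes described here are a set of their messages, found by symbol among the 56691 gene IDs of the count table. They fall into 20 disease-associated genes (Trem2 to Igf1), which microglia are known to raise near damage, 10 homeostatic genes (P2ry12 to Selplg), which mark resting microglia, and 10 general myeloid genes, which other macrophages and white blood cells also express. All 40 passed the filter on low counts and were tested. They were measured as ribosome-associated RNA of the mouse ventral tegmental area, a midbrain region rich in dopamine neurons. There were 4 libraries of mice of genotype Ogtflox+/Y (Ogt knockdown, described as KO in the labels) and 4 of genotype Ogtflox-/Y (control, described as WT). Mice of both groups received AAV-TH-Cre, a virus with Cre under a TH promoter, and AAV-Flex-NBL10, a Cre-dependent virus whose HA-tagged product NBL10 served to pull down ribosomes, so genotype is the only labelled difference. By design Cre acts in cells that use the viral TH promoter, which marks catecholamine neurons and not microglia, and no age is given in the labels. The study asks which pathways change in dopamine neurons when Ogt, the gene of O-GlcNAc transferase, is reduced. No label says whether the libraries came from separate animals, so p-values reflect the spread among these libraries alone, which may be technical.

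The disease-associated state depends in part on the receptor TREM2, which binds lipids and apolipoproteins, and its adaptor TYROBP, whose cytoplasmic motif recruits the kinase SYK. In that state microglia are known to lower purinergic and fractalkine receptors such as P2RY12 and CX3CR1 and to raise lysosomal, lipid and adhesion genes. Survival of microglia depends on the receptor CSF1R and its ligands CSF1 and IL-34, and their identity on factors such as PU.1, IRF8 and SALL1.

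The libraries held between 49802305 and 147747191 reads, and 3 reads, the floor of detection, corresponded to between 0.0212 and 0.0626 CPM (read counts scaled to library size, with the trimmed mean of M values). The targeted gene Ogt fell from 126 ± 22.8 to 49.8 ± 17.03 CPM (SD, n = 4 each; edgeR log2 fold change -1.34 with SE 0.23, adjusted p = 0.00243), with no overlap between groups. The labelled dopamine neuron messages were present in every library, though 10 of 12 dopamine neuron markers fell and 1 rose, Th from 707 ± 364 to 214 ± 47.3 CPM (SD, n = 4). Control replicate 3 stood apart: its 12 endothelial markers summed to 1218 CPM, against 34.3 to 40.6 CPM in the other controls and 51.2 to 76.7 CPM in the knockdown libraries. Of 12 astrocyte markers 3 rose (8 without control replicate 3, 11 without both libraries numbered 3, 1 with any 1 of control replicates 4 and 6 and knockdown replicates 2, 4 and 5 left out), and of 12 oligodendrocyte markers 8 rose (3 with any 1 of control replicates 4 and 6 and knockdown replicate 2 left out). Among all genes tested 13.4% rose. All 12 markers of each list had positive log2 fold changes, with medians of 1.13 (astrocyte) and 0.86 (oligodendrocyte). The endothelial and pericyte medians were -2.64 and -1.43, and 1.16 and 1.30 without control replicate 3.

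The regions before the start of 5 members are shown because many of the genes moved together and PU.1, a lineage factor of microglia, binds the ETS core GGAAGT. RefSeq promoters (GRCm38.p6, a build other than the GRCm39 coordinates of the count table) were matched by symbol for 33 of the 40 members. The core, searched on both strands in the 250 bases before each start, was present for 12 of the 33 (36.4%), against 22.2% of 27025 genes and 19.7% of 32851 promoter windows. The composite of GGAA and GAAA with any 2 bases between them, an ETS site beside an interferon regulatory factor site that can overlap the core, was present for 1 of 33 (Clec7a), against 2.68% of genes and 2.30% of windows. The STAT motif TTCNNNGAA, of interest because the study is about STAT3, was present for 1 of 33 (Siglech), against 8.13% of genes and 7.02% of windows. The regions of Cst7, Clec7a and Itgax, which rose, of the homeostatic gene P2ry12 and of Spp1, which fell, are printed with the core, the composite and their reverse complements in capitals.
Cst7, chr2:150570165-150570414, plus strand: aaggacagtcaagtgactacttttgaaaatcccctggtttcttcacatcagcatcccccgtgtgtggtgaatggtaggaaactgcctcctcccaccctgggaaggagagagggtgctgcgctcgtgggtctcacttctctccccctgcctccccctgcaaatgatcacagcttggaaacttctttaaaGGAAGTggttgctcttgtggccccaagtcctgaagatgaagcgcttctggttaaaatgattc
Clec7a, chr6:129472780-129473029, minus strand: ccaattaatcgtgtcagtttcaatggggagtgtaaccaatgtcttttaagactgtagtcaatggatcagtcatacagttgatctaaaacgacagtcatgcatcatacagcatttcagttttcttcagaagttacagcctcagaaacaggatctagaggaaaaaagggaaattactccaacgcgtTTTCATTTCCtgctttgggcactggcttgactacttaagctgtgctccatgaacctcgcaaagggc
Itgax, chr7:128129300-128129549, plus strand: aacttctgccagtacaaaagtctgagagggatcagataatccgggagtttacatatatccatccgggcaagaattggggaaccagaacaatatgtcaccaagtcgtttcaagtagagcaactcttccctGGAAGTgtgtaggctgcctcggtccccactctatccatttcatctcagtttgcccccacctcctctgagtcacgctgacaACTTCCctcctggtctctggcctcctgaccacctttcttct
P2ry12, chr3:59262986-59263235, minus strand: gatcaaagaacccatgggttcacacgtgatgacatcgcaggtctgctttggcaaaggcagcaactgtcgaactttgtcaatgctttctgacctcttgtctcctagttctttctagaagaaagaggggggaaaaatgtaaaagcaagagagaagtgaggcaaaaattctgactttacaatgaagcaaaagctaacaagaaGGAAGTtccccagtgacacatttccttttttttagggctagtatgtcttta
Spp1, chr5:104434861-104435110, plus strand: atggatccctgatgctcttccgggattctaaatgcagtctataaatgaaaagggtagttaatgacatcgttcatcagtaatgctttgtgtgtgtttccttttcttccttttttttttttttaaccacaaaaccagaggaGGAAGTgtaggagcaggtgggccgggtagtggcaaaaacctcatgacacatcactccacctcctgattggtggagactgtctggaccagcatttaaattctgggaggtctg
Cst7, P2ry12 and Spp1 each hold 1 copy of the core, Itgax holds 2 and Clec7a holds the composite. Another window of Spp1 (chr5:104435942-104436191) holds neither motif and is not printed. Every printed region thus holds a motif, while the core was present for 12 of the 33 members matched. In the printed regions the core stands before a gene that fell as well as before genes that rose. A match of letters is a description and not a binding site.

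Of the 40 members, 30 rose, 2 fell and 8 did not pass the test (edgeR quasi-likelihood, Benjamini-Hochberg adjusted p under 0.05 over 19912 genes). Among all genes tested, 13.4% rose and 15.1% fell. By class, 15 of 20 disease-associated members rose and 2 fell, 7 of 10 homeostatic members rose, and 8 of 10 general myeloid members rose. The median log2 fold change was 1.94 for the disease-associated, 1.49 for the homeostatic and 2.58 for the general myeloid class, beside 0.0021 over all genes tested. The groups did not overlap for 29 members that were higher and for both that fell, while 17.1% of all genes were higher and 18% lower without overlap. Of the 30 members that rose, 29 rose at least 2-fold, as did 7.87% of all genes tested. The RNA was pulled down by a tag meant for dopamine neurons, so microglial messages were not its target. More microglial material, more message per microglial cell and a smaller share of tagged RNA cannot be told apart here.

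**Figure D1:**
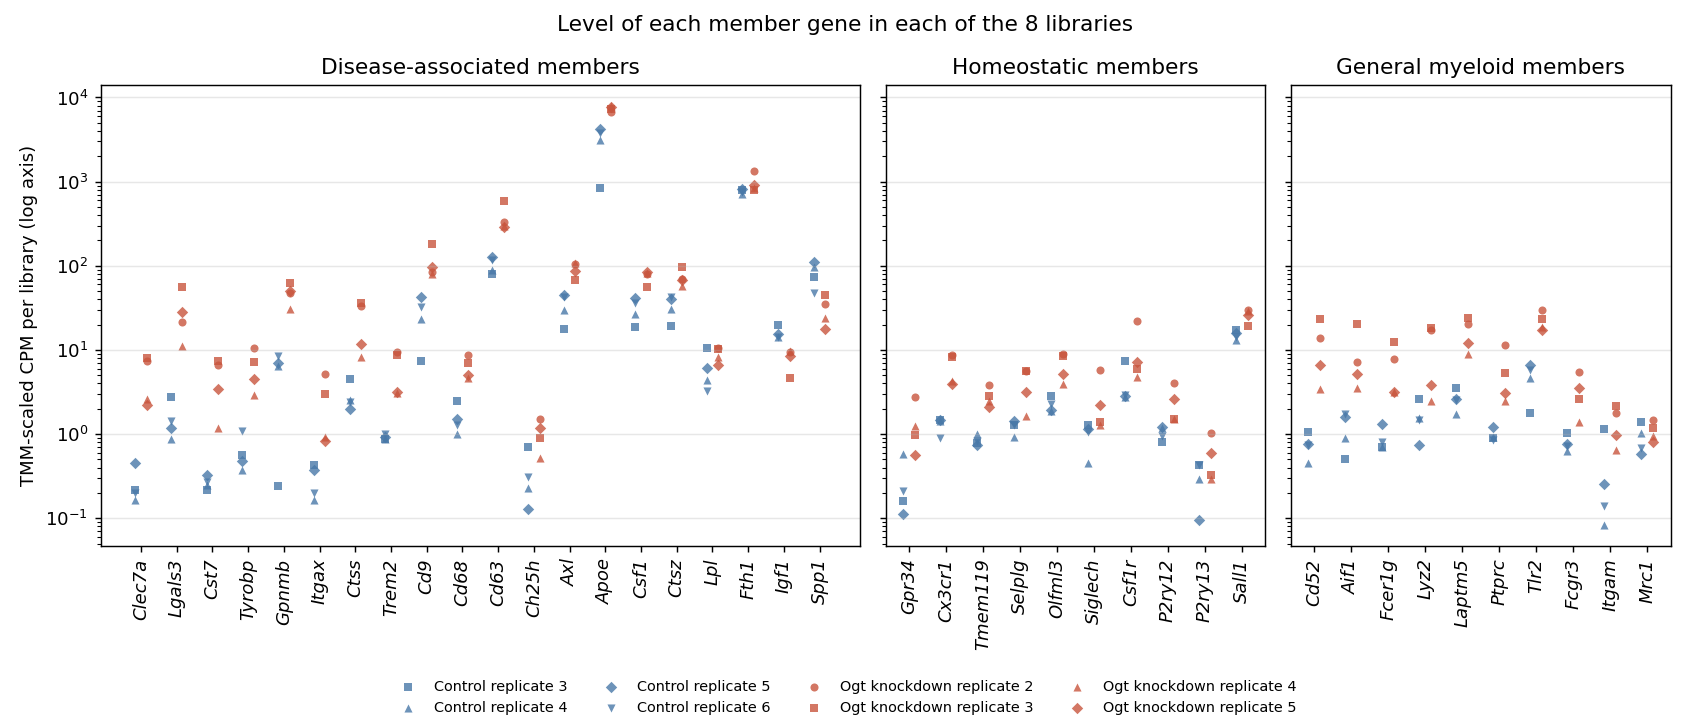
TMM-scaled CPM (log axis) of each member in each library; blue symbols are the 4 control and red symbols the 4 Ogt knockdown libraries, with the symbol's shape giving the replicate number, and members are ordered by fold change within their class. The red symbols lie above all blue ones for 29 members and below all of them for Spp1 and Igf1; among knockdown libraries, replicates 2 and 3 (circles and squares) are the highest for most members.

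The receptor and adaptor of the disease-associated state both rose. Trem2 (chromosome 17, 48653429 to 48661175, GRCm39) was at 0.866, 0.877, 0.926 and 1.01 CPM in the controls and 9.51, 8.63, 3.06 and 3.16 CPM in the knockdown libraries, always in the order of replicates 3 to 6 and 2 to 5. The controls lay close together, all knockdown libraries lay above them, and knockdown replicates 2 and 3 were far above replicates 4 and 5. Trem2 rose from 0.920 ± 0.0662 to 6.09 ± 3.46 CPM (SD, n = 4; edgeR log2 fold change 2.72 with SE 0.42, adjusted p = 0.00145). Tyrobp (chromosome 7, 30113185 to 30117010) was at 0.568, 0.376, 0.483 and 1.08 CPM in the controls and 10.7, 7.17, 2.93 and 4.56 CPM in the knockdown libraries and rose 9.98-fold (edgeR log2 fold change 3.32 with SE 0.48, adjusted p = 0.00117). Its lowest knockdown library was above its highest control library. Apoe, the main lipid carrier of the brain and made largely by astrocytes, was at 847, 3089.6, 4229 and 3833 CPM in the controls and 6805, 7375, 7949.5 and 7816 CPM in the knockdown libraries. Knockdown libraries were alike for Apoe and control replicate 3 was far below the other controls. Apoe rose 2.50-fold (edgeR log2 fold change 1.32 with SE 0.39, adjusted p = 0.0319) and 2.01-fold without control replicate 3 (adjusted p = 0.00116). Apoe no longer passed with control replicate 4 left out (edgeR adjusted p = 0.0802), nor with knockdown replicate 2, 3, 4 or 5 left out (0.0655, 0.0689, 0.0771 and 0.074). The summed level of 12 astrocyte markers moved with it, from 1593 CPM in control replicate 3 and 4166 to 6090.4 CPM in the other controls to 10295 to 14584 CPM in the knockdown libraries. The part of astrocyte RNA in the Apoe result was not tested.

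Among the other surface receptors and adhesion genes of this class, Clec7a, which encodes the beta-glucan receptor dectin-1, changed most. It was at 0.217, 0.167, 0.451 and 0.198 CPM in the controls and 7.37, 8.0, 2.64 and 2.22 CPM in the knockdown libraries (edgeR log2 fold change 4.26 with SE 0.55, adjusted p = 0.000759). The control libraries held 8 to 56 reads of it, so the size of its 19.1-fold rise is uncertain while the separation of the groups is wide. Itgax, the integrin CD11c, was at 0.433, 0.167, 0.370 and 0.198 CPM in the controls and 5.17, 3.005, 0.933 and 0.825 CPM in the knockdown libraries and rose 8.42-fold (edgeR adjusted p = 0.00709). It rose 5.32-fold without knockdown replicate 2. Axl, a receptor tyrosine kinase for apoptotic cells, rose from 33.7 ± 12.5 to 91.4 ± 18.5 CPM (SD, n = 4; 2.71-fold, edgeR adjusted p = 0.00432). Axl was lowest in replicate 3 of each group (control 17.9 and knockdown 67.0 CPM), as was the summed level of astrocyte markers (1593 and 10295 CPM). The part of astrocyte RNA in the rise of Axl was not tested. Gpnmb, a lysosomal glycoprotein, was at 0.244, 6.51, 7.06 and 8.44 CPM in the controls and 47.8, 62.4, 31.02 and 50.4 CPM in the knockdown libraries and rose 8.58-fold (edgeR adjusted p = 0.0152). Control replicate 3 was the lowest for Gpnmb by a wide margin, and without it the rise was 6.49-fold. The tetraspanins Cd9 and Cd63, found on exosomes and lysosomes of many cell types, rose as well. Cd63 was at 79.2, 88.6, 126 and 118 CPM in the controls and 335, 591, 298 and 289 CPM in the knockdown libraries (edgeR log2 fold change 1.88 with SE 0.26, adjusted p = 0.000965). Cd9 rose 4.13-fold (edgeR adjusted p = 0.0135), and 2.62-fold without both libraries numbered 3. Knockdown replicate 3 was the highest library for both tetraspanins.

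Among lysosomal and secreted products of the class, 6 members rose (Cst7, Lgals3, Ctss, Ctsz, Cd68 and Csf1). Cst7, which encodes cystatin F, an inhibitor of lysosomal cathepsins, was at 0.217, 0.251, 0.330 and 0.269 CPM in the controls and 6.70, 7.49, 1.17 and 3.47 CPM in the knockdown libraries (edgeR log2 fold change 4.13 with SE 0.56, adjusted p = 0.00086). The controls held 12 to 41 reads of Cst7, and the highest and lowest knockdown libraries differed 6.39-fold. Lgals3, galectin-3, was at 2.76, 0.877, 1.19 and 1.43 CPM in the controls and 21.2, 56, 11.01 and 28.6 CPM in the knockdown libraries (edgeR log2 fold change 4.22 with SE 0.56, adjusted p = 0.000997). Knockdown replicate 3 was highest and replicate 4 lowest for Lgals3, and every knockdown library exceeded every control. Cathepsin S (Ctss) rose from 2.86 ± 1.15 to 22.4 ± 14.5 CPM (SD, n = 4; 7.82-fold, edgeR adjusted p = 0.00315), cathepsin Z (Ctsz) 2.19-fold (edgeR adjusted p = 0.00876), and Cd68, a lysosomal protein of macrophages, 4.03-fold (edgeR adjusted p = 0.00228). Ctsz overlaps the gene Nelfcd on the opposite strand, which was at 56.2 CPM in controls and 29.3 CPM in knockdown, and reads were counted without strand. Csf1, the ligand of CSF1R, rose from 30.9 ± 10.2 to 75.3 ± 13.4 CPM (SD, n = 4; 2.44-fold, edgeR adjusted p = 0.00408). Like the summed astrocyte markers, Csf1 was lowest in replicate 3 of each group (control 18.8 and knockdown 55.4 CPM). The part of astrocyte RNA in the rise of Csf1 was not tested.

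Of the remaining 5 disease-associated members, 2 fell and 3 did not pass. Spp1, osteopontin, which neurons of the brainstem also express, was at 73.98, 97.2, 112 and 47.1 CPM in the controls and 35.1, 44.9, 23.8 and 17.95 CPM in the knockdown libraries. Its knockdown libraries all lay below its controls, and it fell 2.71-fold (edgeR log2 fold change -1.44 with SE 0.33, adjusted p = 0.0104). Igf1, insulin-like growth factor 1, was at 19.8, 14.3, 15.3 and 14.1 CPM in the controls and 9.34, 4.71, 9.78 and 8.52 CPM in the knockdown libraries and fell 1.96-fold (edgeR log2 fold change -0.97 with SE 0.24, adjusted p = 0.0137). Both falls passed the test when any 1 library was left out. Lpl, lipoprotein lipase, was at 10.7, 4.34, 6.09 and 3.23 CPM in the controls and 10.7, 10.3, 8.36 and 6.69 CPM in the knockdown libraries and did not pass (edgeR adjusted p = 0.25). Control replicate 3 lay as high as the highest knockdown library for Lpl, and without it Lpl was 1.97-fold higher (adjusted p = 0.0135). With any other library left out it did not pass (edgeR adjusted p up to 0.481). Ch25h, cholesterol 25-hydroxylase, was at 0.704, 0.230, 0.129 and 0.311 CPM in the controls and 1.53, 0.905, 0.520 and 1.17 CPM in the knockdown libraries and did not pass either (edgeR adjusted p = 0.066, 0.00882 without control replicate 3 and up to 0.175 with another library left out). Fth1, ferritin heavy chain, was at 787, 706, 808 and 757 CPM in the controls and 1347, 805, 831 and 915 CPM in the knockdown libraries (1.27-fold, edgeR adjusted p = 0.167). Knockdown replicate 2 stood well above the controls for Fth1 and the others at or just above them. Counts of Fth1 are uncertain because the genome holds many ferritin copies and multi-mapping reads did not enter the table.

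Levels between genes were compared per kilobase of exon. In the controls Apoe had 1403 CPM per kilobase, Fth1 220.4, Spp1 50.1, Cd63 27.9 and Ctsz 23.02. Other members were far lower, with 0.186 CPM per kilobase for Trem2, 0.938 for Tyrobp, 0.270 for Cst7, 0.362 for Tmem119 and 0.291 for Cx3cr1. Among homeostatic members, Csf1r was at 0.694 and Sall1 at 2.86 CPM per kilobase. In knockdown the level of Tyrobp was 9.49, of Cst7 4.78 and of Tmem119 1.21 CPM per kilobase.

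**Figure D2:**
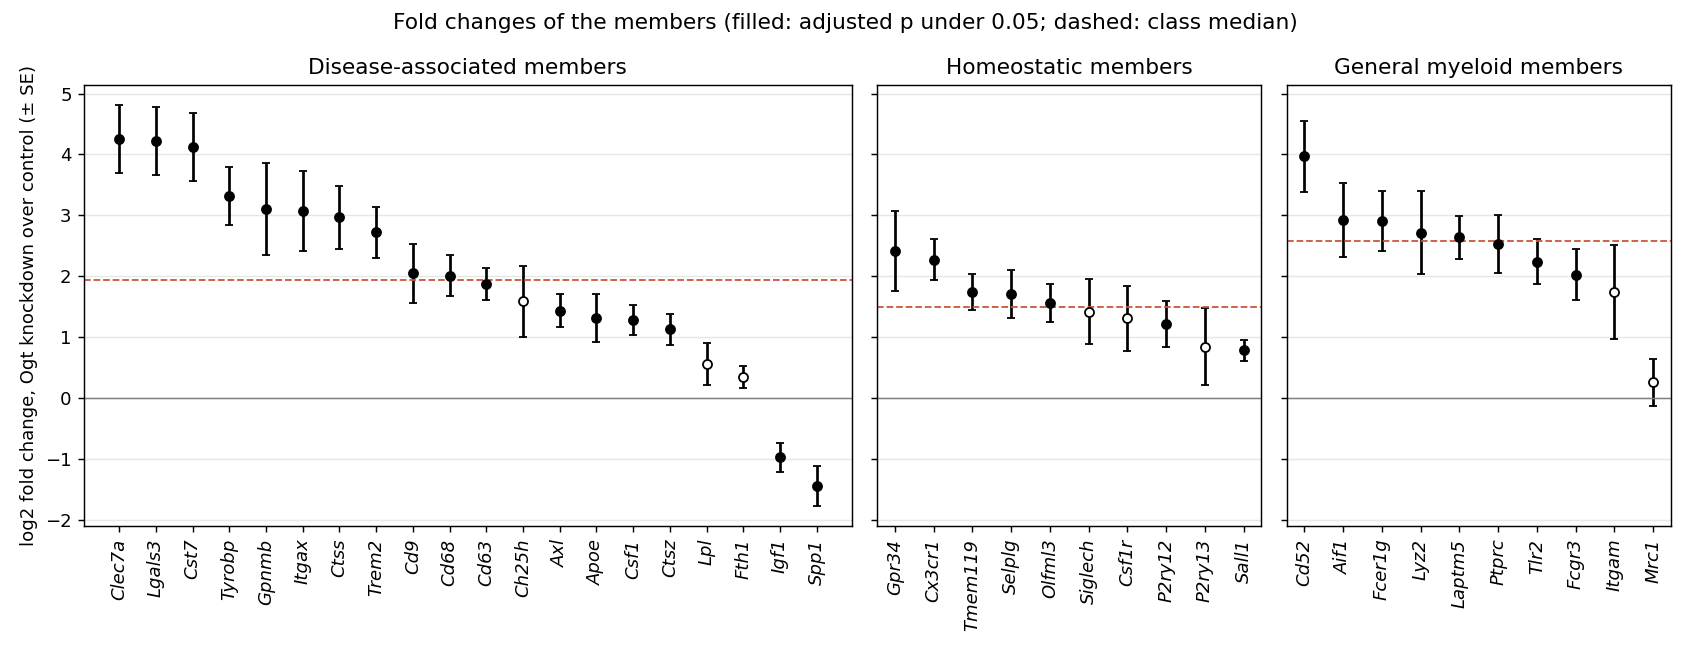
Log2 fold change of each member, Ogt knockdown over control, with its standard error; filled points passed the test and the dashed line is the median of the class. The points run from Clec7a at 4.26 to Spp1 at -1.44 among disease-associated members, from Gpr34 at 2.41 to Sall1 at 0.79 among homeostatic ones and from Cd52 at 3.97 to Mrc1 at 0.26 among general myeloid ones.

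Homeostatic genes were higher in knockdown as well, and none fell. Cx3cr1, the fractalkine receptor (chromosome 9, 119730682 to 119898945), was at 1.46, 1.42, 1.47 and 0.891 CPM in the controls and 8.80, 8.25, 4.26 and 3.96 CPM in the knockdown libraries (edgeR log2 fold change 2.27 with SE 0.34, adjusted p = 0.00134). Tmem119, a membrane protein used to tell microglia from other macrophages, was at 0.785, 1.002, 0.741 and 0.820 CPM in the controls and 3.81, 2.82, 2.45 and 2.09 CPM in the knockdown libraries (edgeR log2 fold change 1.74 with SE 0.29, adjusted p = 0.00227). Neither gene had overlapping groups, though the annotated span of Cx3cr1 also takes in Gorasp1 (35.4 and 24.1 CPM in controls and knockdown) on its strand and Wdr48 (32.5 and 41.0 CPM) on the other. Olfml3, a secreted matrix protein, was at 2.87, 1.88, 1.95 and 2.28 CPM in the controls and 9.02, 8.54, 3.92 and 5.13 CPM in the knockdown libraries (edgeR log2 fold change 1.57 with SE 0.31, adjusted p = 0.00499). Sall1, a transcription factor of microglial identity, was at 17.2, 12.99, 15.9 and 14.1 CPM in the controls and 30.1, 19.1, 28.7 and 25.9 CPM in the knockdown libraries (edgeR log2 fold change 0.79 with SE 0.17, adjusted p = 0.00826). Sall1 stood apart from the rest of its class, with the highest level per kilobase in controls (2.86 CPM) and the smallest fold change. Selplg, a selectin ligand, rose 3.26-fold (edgeR adjusted p = 0.0104).

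Results for the purinergic and lineage receptors were less firm. P2ry12, the ADP receptor that steers microglial processes, was at 0.812, 1.17, 1.21 and 0.962 CPM in the controls and 4.08, 1.52, 1.49 and 2.59 CPM in the knockdown libraries (edgeR log2 fold change 1.22 with SE 0.38, adjusted p = 0.0357). Knockdown replicate 2 was the highest, and replicates 3 and 4 lay just above the controls. P2ry12 no longer passed with control replicate 4, 5 or 6 left out (edgeR adjusted p = 0.0734, 0.0642 and 0.0918), nor with knockdown replicate 2 or 5 left out (0.121 and 0.0849). P2ry13, a related receptor, was at 0.0966 to 0.433 CPM in controls and 0.293 to 1.02 CPM in knockdown and did not pass (edgeR adjusted p = 0.352). The spans of both overlap that of Med12l, a gene on the opposite strand at 17.5 CPM in controls and 13.9 CPM in knockdown. Reads were counted without strand, so reads of Med12l within their exons could count as theirs, which was not tested. Gpr34, a receptor for lysophosphatidylserine, was 5.33-fold higher (edgeR adjusted p = 0.0218) although its groups overlapped. It was 8.29-fold higher without control replicate 4, and it no longer passed with control replicate 5 or 6 left out (edgeR adjusted p = 0.0561 and 0.0631) or with knockdown replicate 2 left out (3.49-fold, 0.0852). Gpr34 overlaps Cask on the opposite strand, which was at 69.8 CPM in controls and 63.2 CPM in knockdown. Csf1r, the receptor on which microglia depend, was at 7.48, 2.78, 2.87 and 2.89 CPM in the controls and 21.9, 5.94, 4.80 and 7.11 CPM in the knockdown libraries and did not pass (edgeR adjusted p = 0.0953). Control replicate 3 and knockdown replicate 2 were each well above the rest of their group. Csf1r also overlaps Hmgxb3 on the opposite strand, at 28.1 CPM in controls and 18.7 CPM in knockdown. Its log2 fold change of 1.31 became 0.56 without knockdown replicate 2 (edgeR adjusted p = 0.345) and 1.80 without control replicate 3 (0.017). Siglech, a sialic acid receptor, was at 1.27, 0.459, 1.15 and 1.06 CPM in the controls and 5.72, 1.38, 1.28 and 2.22 CPM in the knockdown libraries (edgeR adjusted p = 0.0698). Its highest control and lowest knockdown library were almost equal, without overlap. Its log2 fold change of 1.42 became 0.70 without knockdown replicate 2 (edgeR adjusted p = 0.276) and 1.76 without both libraries numbered 3 (0.037).

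General myeloid genes had the highest class median. Cd52, a small surface glycoprotein of white blood cells, was at 1.06, 0.459, 0.757 and 0.736 CPM in the controls and 13.9, 23.6, 3.44 and 6.62 CPM in the knockdown libraries (edgeR log2 fold change 3.97 with SE 0.58, adjusted p = 0.00134). Laptm5, a lysosomal membrane protein, was at 3.57, 1.75, 2.63 and 2.55 CPM in the controls and 20.5, 24.2, 8.86 and 12.05 CPM in the knockdown libraries (edgeR log2 fold change 2.64 with SE 0.35, adjusted p = 0.000816). In both genes every knockdown library exceeded every control, with replicates 2 and 3 highest. Tlr2, a receptor for bacterial lipoproteins, was at 1.76, 4.59, 6.62 and 5.72 CPM in the controls and 29.6, 23.3, 18.5 and 17.2 CPM in the knockdown libraries (edgeR log2 fold change 2.24 with SE 0.37, adjusted p = 0.00202). Fcer1g, the common gamma chain of Fc receptors and an adaptor like TYROBP, was at 0.704, 0.710, 1.31 and 0.806 CPM in the controls and 7.88, 12.5, 3.16 and 3.14 CPM in the knockdown libraries (edgeR log2 fold change 2.91 with SE 0.49, adjusted p = 0.00235). Without both libraries numbered 3 its rise was 4.96-fold. Fcgr3, an activating IgG receptor that uses this chain, rose 4.08-fold (edgeR adjusted p = 0.00582).

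Aif1, the calcium-binding protein IBA1 by which microglia are commonly stained, was at 0.501, 0.898, 1.62 and 1.75 CPM in the controls and 7.14, 20.6, 3.56 and 5.23 CPM in the knockdown libraries (edgeR log2 fold change 2.92 with SE 0.61, adjusted p = 0.007). Knockdown replicate 3 was far above the others, and without it the rise was 4.42-fold. Ptprc, the phosphatase CD45 of all white blood cells, was at 0.893, 0.919, 1.21 and 0.863 CPM in the controls and 11.6, 5.32, 2.47 and 3.09 CPM in the knockdown libraries (edgeR log2 fold change 2.53 with SE 0.47, adjusted p = 0.00391). It was 3.69-fold higher without knockdown replicate 2, the highest library. Lyz2, lysozyme, rose from 1.59 ± 0.764 to 10.4 ± 8.39 CPM (SD, n = 4; 6.56-fold, edgeR adjusted p = 0.0168) although the lowest knockdown library (2.48 CPM) lay below the highest control (2.60 CPM). Lyz2 no longer passed with control replicate 4 or 6 left out (edgeR adjusted p = 0.0506 and 0.0505) or without both libraries numbered 3 (0.0602), and its counts are uncertain because Lyz1 is a near-identical copy. Itgam, the integrin CD11b, was at 1.16, 0.0835, 0.258 and 0.141 CPM in the controls and 1.78, 2.14, 0.640 and 0.966 CPM in the knockdown libraries and did not pass (edgeR adjusted p = 0.121). Control replicate 3 was its only high control, and without that library Itgam was 8.15-fold higher (adjusted p = 0.00297). With any other library left out Itgam did not pass (edgeR adjusted p up to 0.24). Mrc1, the mannose receptor CD206 of macrophages at the borders of the brain, was at 1.38, 1.04, 0.580 and 0.693 CPM in the controls and 1.45, 1.19, 0.959 and 0.813 CPM in the knockdown libraries (edgeR log2 fold change 0.26 with SE 0.39, adjusted p = 0.647). The groups overlapped, and Mrc1 did not pass whichever single library was left out (adjusted p from 0.29 to 0.904).

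The 4 knockdown libraries were not equally high. Replicate 2 was the highest knockdown library for 20 members, replicate 3 for 16, replicate 4 for 3 and replicate 5 for 1. Both replicates 2 and 3 exceeded both replicates 4 and 5 for 24 of 40 members, namely 11 of 20 disease-associated, 4 of 10 homeostatic and 9 of 10 general myeloid ones. Replicate 2 was highest for 9 of 10 homeostatic members, while replicate 3 was highest for 9 of 20 disease-associated and 6 of 10 general myeloid members.

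The classes were also set side by side within each library, as the mean of log2(CPM + 0.1) over members. The disease-associated level was 2.90 ± 0.21 in controls and 4.75 ± 0.44 in knockdown (SD, n = 4 each), the homeostatic level 0.50 ± 0.14 and 1.84 ± 0.56, and the general myeloid level 0.25 ± 0.19 and 2.44 ± 0.78. No class had overlapping groups. The disease-associated level minus the homeostatic level was 1.98, 2.31, 2.76 and 2.54 in control replicates 3 to 6 and 2.48, 3.38, 2.90 and 2.88 in knockdown replicates 2 to 5. These differences overlapped between the groups, with knockdown replicate 2 within the range of the controls. The general myeloid minus the homeostatic level was -0.26, -0.46, -0.06 and -0.23 in controls and 0.41, 1.41, 0.21 and 0.37 in knockdown, without overlap. These are descriptions of chosen lists and were not tested.

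**Figure D3:**
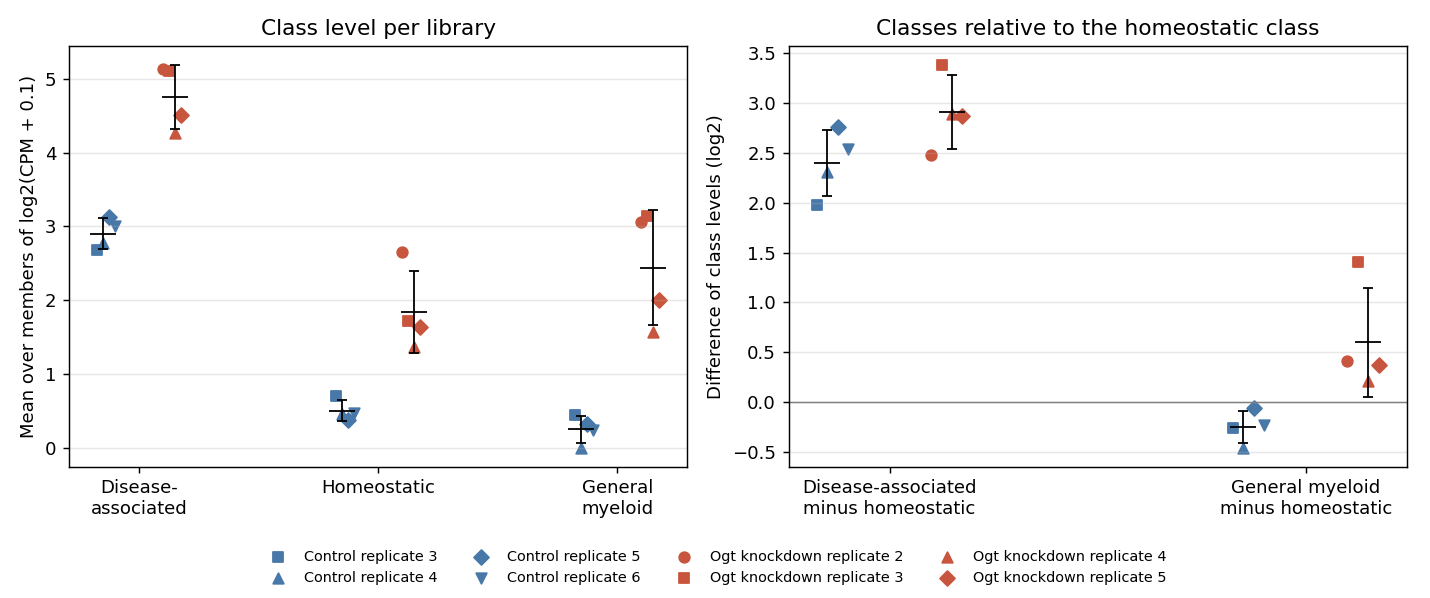
Left, mean over the members of each class of log2(CPM + 0.1) in each library; right, the disease-associated and general myeloid levels minus the homeostatic level. Blue symbols are control and red symbols Ogt knockdown libraries, and black bars are group means with SD (n = 4); the groups are apart for each class at left, and at right for the general myeloid difference, while knockdown replicate 2 (2.48) lies among the controls (1.98 to 2.76) for the disease-associated difference.

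Genes of the same pathways that are not among the 40 were counted from lists. Of 24 tested genes of the disease-associated programme beyond the members, 10 rose, 1 fell and 13 did not pass, with a median log2 fold change of 0.56. The MHC class I gene H2-D1 rose 2.78-fold (edgeR adjusted p = 0.00101), and the lysosomal proteases Ctsd and Ctsl rose 2.02-fold and 1.86-fold. H2-D1 is near-identical in part to other class I genes, so its counts are uncertain. Timp2, an inhibitor of metalloproteases, fell 1.43-fold (edgeR adjusted p = 0.0251), a call lost with any 1 of control replicates 4, 5 and 6 and knockdown replicates 2 and 4 left out (adjusted p up to 0.0839). The 11 called genes became 7 with any 1 of control replicate 6 and knockdown replicate 2 left out, and 17 without both libraries numbered 3.

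Of 19 further homeostatic genes tested, 5 rose, 0 fell and 14 did not pass, with a median of 0.38. Adgrg1, an adhesion receptor, rose 1.89-fold (edgeR adjusted p = 0.00582), Cd33, a sialic acid receptor, 3.21-fold, and Bin1, a membrane-bending protein, 1.53-fold. The 5 became 1 without control replicate 4, 5 or 6, 2 without knockdown replicate 2 and 8 without both libraries numbered 3. The calls of Cd33 (adjusted p up to 0.0634) and Bin1 (up to 0.0783) were among those lost without control replicate 4, 5 or 6.

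Of 18 tested genes of signalling below TREM2 and Fc receptors, 6 rose (Cd33, which stands in both lists, among them), 1 fell and 11 did not pass. Vav1, a guanine nucleotide exchange factor, rose 7.27-fold (edgeR adjusted p = 0.00135), and Ms4a6d, a tetraspan gene, rose from 0.0272 to 0.645 CPM (edgeR adjusted p = 0.00855). The control mean of Ms4a6d lay within the range of the detection floor. Ms4a6d passed the filter through its knockdown libraries, so its call and the size of its rise are uncertain. Pik3cd, a phosphoinositide 3-kinase subunit, fell 2.80-fold (edgeR adjusted p = 0.00215). The 7 called genes became 4 with any 1 of control replicate 4 and knockdown replicate 2 left out, and 12 without both libraries numbered 3. Among ligands and lineage factors of the CSF1R axis, 8 of 18 rose, 1 fell and 9 did not pass. Irf8 rose from 1.22 ± 0.130 to 13.1 ± 7.85 CPM (SD, n = 4; 10.7-fold, edgeR adjusted p = 0.00069). Cebpa, a myeloid factor that astrocytes also express, rose 1.92-fold (edgeR adjusted p = 0.0113). Il34, the CSF1R ligand made by neurons, fell from 32.8 ± 3.33 to 17.1 ± 2.63 CPM (SD, n = 4; 1.92-fold, edgeR adjusted p = 0.00192), while the other ligand, Csf1, rose. The 9 called genes became 5 with any 1 of control replicate 4 and knockdown replicates 2 and 4 left out. Of 18 tested phagocytic receptors and lipid exporters, 10 rose, 0 fell and 8 did not pass, with a median of 1.31. Pros1, a bridging ligand for apoptotic cells, rose 3.29-fold (edgeR adjusted p = 0.000237), Ly86, a partner of a Toll-like receptor homologue, 6.44-fold, and Abca1, a cholesterol exporter, 3.03-fold.

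Markers of other cell types that could carry myeloid messages were counted beside these results. Border-associated macrophage markers summed to 32.4 CPM in control replicate 3, 11.2 to 13.8 CPM in the other controls and 13.5 to 29.4 CPM in knockdown. Of 7 tested, 1 rose (Cd163, 2.34-fold, edgeR adjusted p = 0.0391), and 3 changed without control replicate 3. The Cd163 call was lost with any 1 of control replicates 5 and 6 and knockdown replicates 2, 4 and 5 left out, with adjusted p up to 0.117. Their defining markers Lyve1 (0.180 and 0.258 CPM, control and knockdown means), Pf4 (0.138 and 0.275) and Folr2 (0.00707 and 0) were near 0. Of 13 neutrophil markers 2 passed the filter and 0 changed, with 0 at an unadjusted p under 0.05 in edgeR and 0 called by DESeq2 or limma-voom, while 1 changed without control replicate 3. The neutrophil list summed to 1.95 to 4.26 CPM in controls and 3.05 to 4.37 CPM in knockdown. S100a8 had means of 0 and 0.0890 CPM, and Ly6g was at 0 in every library. Of 8 tested monocyte markers 2 rose and 1 fell, Ace 2.32-fold (edgeR adjusted p = 0.00601). Ms4a4c rose from 0.0401 to 0.794 CPM (edgeR adjusted p = 0.0187), a call lost with any 1 of control replicate 5 and knockdown replicate 2 left out (adjusted p up to 0.0505). Its control mean lay within the range of the detection floor, and it passed the filter mainly through its knockdown libraries. Vcan, which glial precursors also express, rose 1.56-fold (edgeR adjusted p = 0.0455), and its call was lost with any 1 of control replicates 4, 5 and 6 and knockdown replicates 2 and 4 left out (up to 0.138). There were 5 changed monocyte markers without control replicate 3 and 1 with control replicate 5 left out. Ccr2, the defining receptor of inflammatory monocytes, had means of 0.0964 and 0.314 CPM, and the summed monocyte list was at 211 CPM in control replicate 3, 36.6 to 40.5 CPM in the other controls and 34.7 to 41.2 CPM in knockdown. Of the 12 monocyte genes listed, 9 had control means under 1 CPM, so the sum rests on the few others. The log2 fold changes of the 8 tested ran from -2.27 to 4.07, with a median of 1.15. Markers of T and NK cells summed to 3.65 to 8.004 CPM in controls and 12.4 to 17.1 CPM in knockdown, without overlap. The erythroid list, a sign of blood content, summed to 65.3 CPM in control replicate 3, 9.65 to 19.4 CPM in the other controls and 37.01 to 114 CPM in knockdown. Apart from control replicate 3 it was thus higher in knockdown. Within knockdown it summed to 38.4, 114, 61.2 and 37.01 CPM in replicates 2 to 5. Replicate 2 was the highest knockdown library for 20 members and replicate 3 for 16, and replicate 4 was the lowest for 23. The part of blood and of these cells in the rise of the members was not tested.

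When scaling, filter, tool or a single library was changed, between 25 and 36 of the members tested rose (edgeR, DESeq2 or limma), against 6.04% to 26.4% of all genes. Directions were the same for all 40 members under both other scalings. Without both libraries numbered 3, 34 rose and 2 fell, beside 23.5% and 23.3% of all genes. With the replicate number as a block, 13 rose and 0 fell, beside 2.41% and 3.91% of all genes. Knockdown replicate 2 and control replicate 6 share their number with no other library. The block fit therefore compares the groups only among the libraries numbered 3, 4 and 5. Of the 32 members called, 28 kept their call whichever single library was left out, the exceptions being Apoe, P2ry12, Gpr34 and Lyz2.

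**Figure D4:**
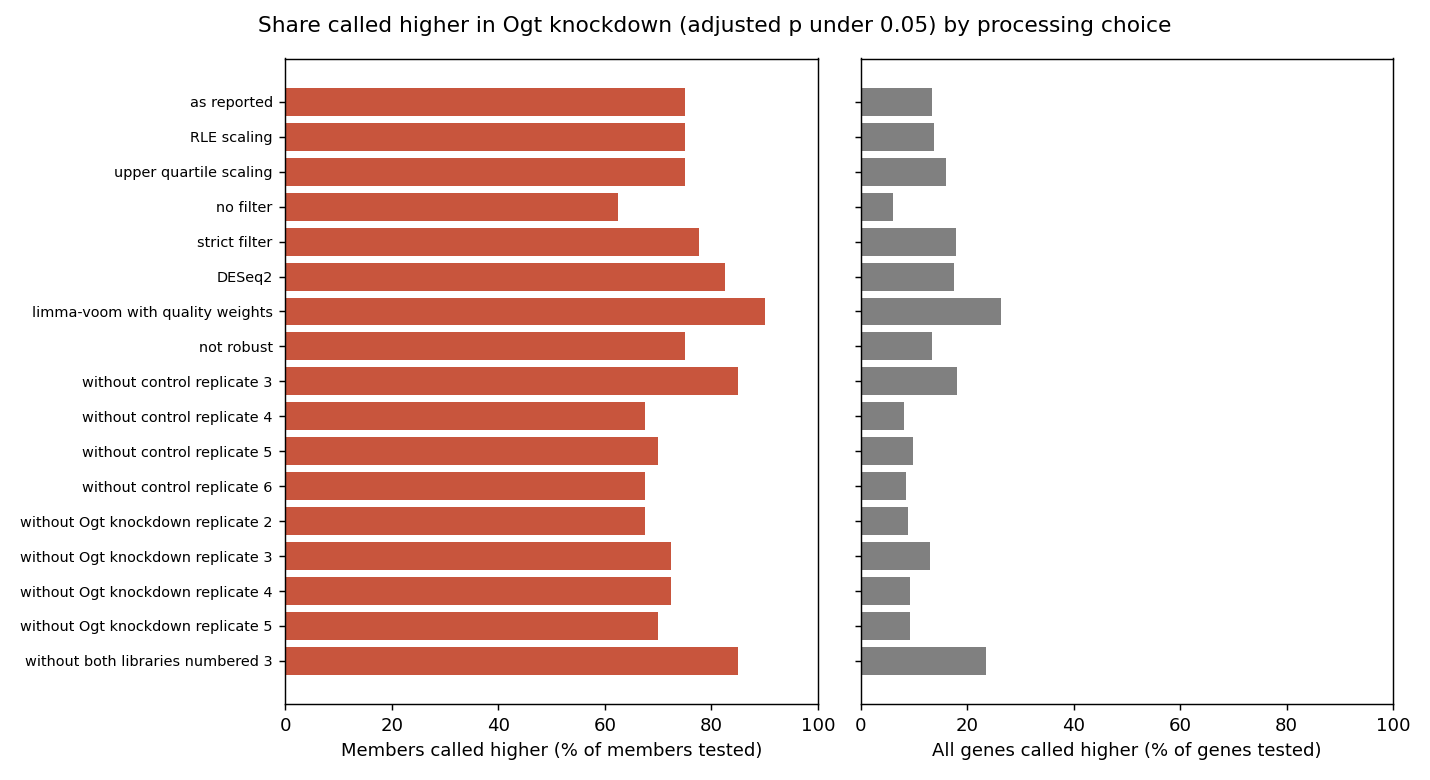
Share of the members tested (left, red) and of all genes tested (right, grey) that were called higher in Ogt knockdown (adjusted p under 0.05) under the processing choices listed at left; both axes run from 0 to 100%. The members' bars span 62.5% (no filter) to 90% (limma-voom), and the bars of all genes stay between 6.04% and 26.4%. The replicate number as a block, which compares only the libraries numbered 3, 4 and 5, is not drawn. It gave 32.5% of members and 2.41% of all genes.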

How the data were processed

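A deposited matrix holds raw read counts of each gene in the 8 libraries, which featureCounts 2.0.3 made over exons of GENCODE vM30, per the file headers. The command in the header leaves strand, fragment counting and multi-mapping reads at their defaults. FastQC, Trimmomatic, STAR and the build mm10 are named, with no versions, per the submitters' processing notes. GENCODE vM30 describes GRCm39, and this conflict was not resolved. The deposited exon length of each gene (another column, in bases, per the file headers) served to express levels per kilobase.

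Members were matched by gene ID to symbols (GENCODE M21), which 52073 of 56691 IDs had. Genes were filtered with filterByExpr (19912 left), scaled by trimmed mean of M values and tested, 4 libraries against 4, with edgeR 4.0.16 (robust glmQLFit and glmQLFTest, two-sided) in R 4.3.3, with Benjamini-Hochberg adjustment over all genes tested and a threshold of 0.05. The script was tested on simulated data. Counting floors cover counting error only. Same-group libraries differed by 25.8 to 497 in chi-square per degree of freedom, so none were duplicates. Members and lists were chosen with earlier results of these data known. The rule for named genes gives values per library for the 4 members of each class with the smallest p, for 12 members in any case and for members that were lower, and names up to 3 genes of each further list by smallest p and any called against their list. Values per library of other members were chosen after they were seen. Alternatives were other scalings, filters and tools (DESeq2 1.42.0, limma 3.58.1), the replicate number as a block, and libraries left out. A result for 1 marker gene of a further list is not reported here.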

Additional observations from a re-analysis of the deposited data

Results flagged for a closer look

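Within a group of 4 libraries, 9 of 82 groups checked (the members and Ogt in each condition) had 1 library whose gap to its nearest neighbour exceeded Dixon's 95% critical value. Chance flags about 1 in 20 groups. Among the knockdown libraries, replicate 3 was high for Cd9 (179.6 CPM, others 78.9 to 95.7) and Cd63 (591 CPM, others 289 to 335) and low for Csf1 (55.4 CPM, others 79.7 to 84.3). Knockdown replicate 2 was high for Csf1r (21.9 CPM, others 4.80 to 7.11).

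In the controls, replicate 3, the library rich in endothelial markers, was high for Csf1r (7.48 CPM, others 2.78 to 2.89) and Itgam (1.16 CPM, others 0.0835 to 0.258). Control replicate 5 was high for Fcer1g (1.31 CPM, others 0.704 to 0.806) and Ptprc (1.21 CPM, others 0.863 to 0.919), and control replicate 6 was low for Cx3cr1 (0.891 CPM, others 1.42 to 1.47).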

How the results depend on the processing

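Counts are genes called. Of 676 comparisons of a member with its reported call under another choice, 618 kept direction and side of the threshold, 40 lost the call, 18 gained it and 0 reversed. When each library was left out in turn the counts ran over 1684 to 3723 genes higher (2659), 7 to 14 further disease-associated genes (11), 1 to 7 further homeostatic genes (5), 4 to 9 TREM2 signalling genes (7), 5 to 9 CSF1R axis genes (9), 0 to 3 border macrophage markers (1), 1 to 5 monocyte markers (3), 0 to 1 neutrophil markers (0), 0 to 4 T and NK cell markers (1), 1 to 4 B and plasma cell markers (3), 2 to 6 cell division genes (5), 1 to 8 astrocyte markers (3), 3 to 10 oligodendrocyte markers (8), 0 to 7 endothelial markers (0), 0 to 5 pericyte markers (0), 0 to 6 erythroid markers (1) and 2 to 4 ependymal markers (2), with the reported value in parentheses. The other reported counts that moved were 10 phagocytic receptors, 3 dendritic cell markers, 11 dopamine neuron markers, 3009 genes lower, 2 disease-associated members lower, 7 homeostatic members higher and 8 general myeloid members higher. With RLE scaling there were 5 astrocyte markers. With upper quartile scaling there were 6 astrocyte markers. With no filter there were 2 cell division genes, 1 astrocyte marker and 0 erythroid markers. With the strict filter there were 4 TREM2 signalling genes, 1 B and plasma cell marker, 2 cell division genes, 7 astrocyte markers and 0 erythroid markers. With DESeq2 there were 2 T and NK cell markers, 8 astrocyte markers, 2 erythroid markers and 4 ependymal markers. With limma-voom there were 5251 genes higher, 4967 genes lower, 17 further disease-associated genes, 9 further homeostatic genes, 12 TREM2 signalling genes, 3 border macrophage markers, 5 monocyte markers, 3 T and NK cell markers, 5 B and plasma cell markers, 8 cell division genes, 11 astrocyte markers, 6 endothelial markers, 4 pericyte markers, 6 erythroid markers and 4 ependymal markers. With the replicate block there were 480 genes higher, 778 genes lower, 0 disease-associated members lower, 1 homeostatic member higher, 2 general myeloid members higher, 3 further disease-associated genes, 0 further homeostatic genes, 1 TREM2 signalling gene, 1 CSF1R axis gene, 4 phagocytic receptors, 0 border macrophage markers, 0 monocyte markers, 0 T and NK cell markers, 0 B and plasma cell markers, 1 dendritic cell marker, 1 cell division gene, 3 dopamine neuron markers, 1 astrocyte marker, 1 oligodendrocyte marker and 2 erythroid markers. Without both libraries numbered 3 there were 4805 genes higher, 4760 genes lower, 17 further disease-associated genes, 8 further homeostatic genes, 12 TREM2 signalling genes, 3 border macrophage markers, 1 neutrophil marker, 2 T and NK cell markers, 11 astrocyte markers, 7 endothelial markers, 4 pericyte markers and 6 erythroid markers. The general myeloid median log2 fold change was 1.93 with limma-voom against 2.58. With the block, which compares only the libraries numbered 3, 4 and 5, 13 members rose and 0 fell, beside 2.41% and 3.91% of all genes. Deviations of same-numbered libraries correlated at 0.104, 0.0987 and 0.0422 (numbers 3, 4 and 5). Those of numbers 3 and 4 were the highest of all pairs across the groups. Control replicate 5 correlated better with knockdown replicate 4 (0.0437) than with its own number. All these correlations were small, so they cannot decide whether shared numbers pair the libraries. The cause of these moves was not tested. For members, 23 of the 40 had control means under 2 CPM, where few reads limit the size of a fold change.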

Other observations

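Genes of cell division, some of which dividing microglia are known to use, rose in part. Of 13 tested, 5 rose, 0 fell and 8 did not pass. Cenpf, a kinetochore protein, rose from 0.365 ± 0.136 to 1.30 ± 0.394 CPM and Birc5, the survivin of the mitotic spindle, from 1.28 ± 0.497 to 4.28 ± 2.48 CPM (SD, n = 4; edgeR adjusted p = 0.0103 and 0.0132). Mki67, the usual marker of dividing cells, was at 0.785, 0.376, 0.225 and 0.0990 CPM in controls and 0.531, 0.941, 0.746 and 1.13 CPM in knockdown (edgeR adjusted p = 0.181) and was chosen after its values were seen. The 5 became 2 with any 1 of control replicates 4, 5 and 6 and knockdown replicate 4 left out, and 3 without knockdown replicate 2 or 5.

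Of 7 tested T and NK cell markers, 1 rose, Trac (a T cell receptor constant region, 2.75-fold, edgeR adjusted p = 0.0299), a call lost when any library other than control replicates 3 and 5 was left out. That count was 4 without control replicate 3, 2 with any 1 of control replicate 5 and knockdown replicate 4 left out, and 0 without knockdown replicate 2, 3 or 5. Of 6 tested B and plasma cell markers, 2 rose and 1 fell, and the list summed to 48.9 to 63.2 CPM in controls and 36.5 to 58.3 CPM in knockdown. Igkc, an antibody light chain, rose from 0.113 to 2.15 CPM (edgeR adjusted p = 0.0202). That call was lost with any 1 of control replicate 6 and knockdown replicate 5 left out (edgeR adjusted p up to 0.063). The 18.8-fold rise of Igkc became 50.2-fold without control replicate 3 (edgeR adjusted p = 0.00247), so its size is uncertain. Pax5, which midbrain neurons also express, fell 2.03-fold (edgeR adjusted p = 0.0251), a call lost without knockdown replicate 2 or 3 (up to 0.0696). The 3 became 1 with any 1 of control replicate 6 and knockdown replicates 2 and 3 left out. Of 7 tested dendritic cell markers 2 rose and 1 fell, Flt3 (3.31-fold, edgeR adjusted p = 0.000656). Batf3, a factor of cross-presenting dendritic cells, rose 4.32-fold (edgeR adjusted p = 0.0103), and Ccr7, a homing receptor, from 0.0156 to 0.179 CPM (edgeR adjusted p = 0.0382, up to 0.12 with 1 library left out). The control mean of Ccr7 lay below the detection floor, and Ccr7 passed the filter through its knockdown libraries.

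Of 5 tested ependymal markers 2 rose (4 without control replicate 3), namely Rarres2 3.03-fold (edgeR adjusted p = 0.00226) and Dynlrb2 3.26-fold (edgeR adjusted p = 0.00282).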
